A study of Mus musculus with 4 samples.

Results

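The genes described here encode 10 enzymes that write or erase histone acetylation, namely the acetyltransferases Kat2a, Kat2b, Ep300, Crebbp and Kat5 and the deacetylases Hdac1, Hdac2, Hdac3, Sirt1 and Sirt6. They were taken by gene name from the 22359 protein-coding genes with a transcription start site (TSS) on chromosomes 1 to 19, X and Y in the GENCODE annotation vM1 of the mouse genome mm9. For each gene, tags (the mapped positions of sequenced fragments) were counted within 2 kb of the TSS, on either side of it, and over the gene body, which runs from 2 kb after the TSS to the 3′ end. The question was how the marks of these enzymes lie on their own genes. Chromatin came from untreated mouse embryonic stem (mES) cells, labelled as the E14 line of strain 129P2/OlaHsd at passage 25-30, whereas the methods describe wild type mES cells derived from blastocysts. These cells were grown on feeder cells and then without feeders for at least 3 passages. The 4 libraries are a chromatin immunoprecipitation (ChIP) of H3K9ac (acetylated lysine 9 of histone H3) with the rabbit polyclonal antibody ab4441, a ChIP of H3K14ac with the mouse monoclonal antibody 13HH3-1A5 (13HH3 below), a further ChIP of H3K14ac with the mouse monoclonal antibody 7G8, and input DNA without antibody. All 4 libraries are of this 1 kind of cell, so the groups differ in the antibody and not in genotype or treatment.

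Histone acetyltransferases transfer the acetyl group of acetyl-CoA to lysines of the histone tails, and deacetylases remove it. Kat2a (GCN5) and Kat2b (PCAF) are alternative catalytic subunits of the SAGA and ATAC coactivators and acetylate H3K9. Ep300 (p300) and Crebbp (CBP) are paired coactivators that act at promoters and enhancers, and Kat5 (TIP60) is the enzyme of the NuA4 complex, best known for acetylating H4 and H2A. Hdac1 and Hdac2 are zinc-dependent deacetylases of the Sin3, NuRD and CoREST corepressors, and Hdac3 is that of NCoR and SMRT. Sirt1 and Sirt6 belong to the NAD-dependent sirtuins, and Sirt6 is known for removing acetyl groups from H3K9. Acetylated H3 is known from active promoters, where it lies on the nucleosomes around a TSS that is itself often free of nucleosomes.

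After 1 tag was kept per position and strand, the libraries held between 19313142 tags (input) and 23837354 tags (7G8). Levels are tags per 10000000 tags of the library (per 10M), and intervals are exact 95% intervals from the tag counts (Poisson for a level, binomial for a share, conditional binomial for a ratio). Each group has 1 library, so there is no replicate check, no p-value was computed, and the intervals cover counting error only. In bulk chromatin, a mark in fewer cells and a lower density of the mark in each cell cannot be told apart. Of the markers of mES cells (Pou5f1, Nanog, Sox2, Klf4, Esrrb and Zfp42), 5 of 6 had at least 2 times as many H3K9ac as input tags around the TSS, against 2 of 6 fibroblast markers, the type of the feeder cells, and 0 of 6 markers of other tissues. The fibroblast markers ran from a log2 ratio of -0.32 (Col3a1) to 2.38 (Fn1), and a part of feeder cells in the values was not tested. Scaling the input over bins of 10 kb in place of total tags would shift every log2 ratio over input by 0.38 for H3K9ac, by 0.10 for 13HH3 and by -0.03 for 7G8.

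For Sirt1 the choice of the TSS matters. The TSS of each gene was the 5′ end of the protein-coding transcript with the longest coding sequence, and in a tie that of the longest transcript. A further transcript of Sirt1 has a coding sequence of the same length and starts 42672 bp downstream, at position 62801780 of chromosome 10. This second start was added after the values were seen. Values of Sirt1 are at the TSS unless the second start is named, and the main ones at the second start are given beside them. No other member has tied starts over 2 kb apart, and of all 22359 genes 947 (4.24%) do. In addition, 5 members have the start of another gene within 2 kb, always upstream. The protein-coding neighbours Hspb9 (1385 bp from the TSS of Kat2a), Rell2 (571 bp, Hdac3), Dnajc12 (739 bp, Sirt1) and Ankrd24 (743 bp, Sirt6) are transcribed away from the member, and the microRNA gene AC160528.1 lies 81 bp upstream of Ep300 on the same strand. Tags between such starts cannot be given to one gene or the other.

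The promoter sequences are shown for the members with the highest ratios of H3K9ac to input (Ep300, Hdac1), for Kat2b and Sirt1 as the lowest of the acetyltransferases and of the deacetylases, and for Crebbp as the paralogue of Ep300, because their CpG content is set beside the marks further on. Each line gives 250 bases of mm9, 5′ to 3′ on the strand of the gene, with CpG dinucleotides in capitals, ending at the base before the start. Where annotated exons lie in that window, the window before the exons was taken instead. It ends 863 bp before the TSS of Ep300, 110 bp before that of Kat2b and, for the second start of Sirt1, next to an exon of the longer transcript, 42654 bp after the TSS.
Ep300, chr15:81415531-81415780, plus strand: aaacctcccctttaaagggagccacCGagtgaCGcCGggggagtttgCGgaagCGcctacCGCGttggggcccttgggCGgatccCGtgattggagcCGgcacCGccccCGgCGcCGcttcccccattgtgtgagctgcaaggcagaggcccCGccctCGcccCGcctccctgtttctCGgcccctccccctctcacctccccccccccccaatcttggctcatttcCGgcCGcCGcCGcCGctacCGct
Hdac1, chr4:129219958-129220207, minus strand: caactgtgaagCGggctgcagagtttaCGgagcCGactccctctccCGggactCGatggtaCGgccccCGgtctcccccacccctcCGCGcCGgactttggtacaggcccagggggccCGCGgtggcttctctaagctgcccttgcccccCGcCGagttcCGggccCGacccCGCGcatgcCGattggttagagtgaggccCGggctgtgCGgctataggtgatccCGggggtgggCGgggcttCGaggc
Kat2b, chr17:53705936-53706185, plus strand: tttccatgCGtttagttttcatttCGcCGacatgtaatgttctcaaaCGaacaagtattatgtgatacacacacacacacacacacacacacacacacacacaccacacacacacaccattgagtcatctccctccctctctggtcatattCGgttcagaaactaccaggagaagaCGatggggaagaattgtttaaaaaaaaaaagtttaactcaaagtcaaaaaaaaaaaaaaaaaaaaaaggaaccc
Sirt1 at the TSS, chr10:62844453-62844702, minus strand: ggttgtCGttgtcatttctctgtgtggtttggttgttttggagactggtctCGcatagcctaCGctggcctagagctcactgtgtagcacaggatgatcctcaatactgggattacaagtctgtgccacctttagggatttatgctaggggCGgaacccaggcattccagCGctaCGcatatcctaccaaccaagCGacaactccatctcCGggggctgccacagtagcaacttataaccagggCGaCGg
Sirt1 at the second start, chr10:62801799-62802048, minus strand: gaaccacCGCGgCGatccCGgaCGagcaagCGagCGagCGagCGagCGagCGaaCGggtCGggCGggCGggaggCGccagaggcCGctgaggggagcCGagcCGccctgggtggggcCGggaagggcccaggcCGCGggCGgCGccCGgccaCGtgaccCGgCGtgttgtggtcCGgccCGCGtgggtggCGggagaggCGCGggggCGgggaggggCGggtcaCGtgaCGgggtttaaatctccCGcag
Crebbp, chr16:4213405-4213654, minus strand: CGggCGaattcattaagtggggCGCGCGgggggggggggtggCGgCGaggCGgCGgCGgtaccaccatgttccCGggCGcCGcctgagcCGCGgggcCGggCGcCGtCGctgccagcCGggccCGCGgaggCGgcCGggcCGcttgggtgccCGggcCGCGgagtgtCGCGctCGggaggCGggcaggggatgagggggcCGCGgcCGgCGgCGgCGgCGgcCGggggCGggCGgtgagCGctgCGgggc
The window of Crebbp holds 44 CpGs and 84.0% G and C, those of Ep300 and Hdac1 hold 24 CpGs each, and that of Kat2b holds 6 CpGs and 38.0% G and C. As the windows of Ep300 and Kat2b do not end at the TSS, these counts are not of like places. The counts set beside the marks further on are those within 500 bp of the TSS. There Kat2b holds 82 CpGs and 60.8% G and C. At the TSS of Sirt1 there are 10 CpGs and 52.8% G and C, and before its second start 39 CpGs and 78.0%.

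H3K9ac lay at the TSS of every member. All 10 had at least 2 times as many H3K9ac as input tags within 2 kb of the TSS, as had 57.7% of the 21216 genes with at least 10 input tags there. In all 10 the interval of the ratio lay above input (66.8% of these genes), and all 10 had an enriched H3K9ac region within 2 kb (65.1% of all 22359 TSSs). The median log2 ratio over input was 2.38 for the members, 1.32 for all genes tested and 1.88 for the 14518 tested genes with an H3K9ac region.

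Among the acetyltransferases, Ep300 had the highest level. Within 2 kb of its TSS (chr15:81414644-81418643, plus strand) lay 342 H3K9ac tags, 109 of 13HH3, 90 of 7G8 and 36 of input, which are 148 (132 to 164), 50.4 (41.4 to 60.8), 37.8 (30.4 to 46.4) and 18.6 (13.1 to 25.8) per 10M. The log2 ratio of H3K9ac over input was 2.98 (2.49 to 3.52), above that of 92.5% of the genes tested. Kat2a (chr11:100571780-100575779, minus strand) followed with 273 H3K9ac, 58 13HH3, 81 7G8 and 36 input tags and a log2 ratio of H3K9ac over input of 2.66 (2.15 to 3.20). Its H3K9ac level of 118 (104 to 133) per 10M was close to that of Kat5. The 13HH3 level was 26.8 (20.4 to 34.7) at both genes. It overlapped the input level of each, 18.6 (13.1 to 25.8) at Kat2a and 15.5 (10.5 to 22.2) at Kat5. The log2 ratio of 13HH3 over input was 0.52 (-0.10 to 1.17) at Kat2a and 0.79 (0.13 to 1.47) at Kat5. Kat5 (chr19:5608030-5612029, minus strand) had 256 H3K9ac, 58 13HH3, 66 7G8 and 30 input tags, and its H3K9ac level was 110.4 (97.3 to 125) per 10M with a log2 ratio of 2.83 (2.28 to 3.43). In contrast, Kat2b and Crebbp had less H3K9ac. Kat2b (chr17:53704296-53708295, plus strand) had 199 H3K9ac, 60 13HH3, 73 7G8 and 48 input tags, a log2 ratio of H3K9ac over input of 1.79 (1.33 to 2.27). Crebbp (chr16:4211405-4215404, minus strand) had 141 H3K9ac, 61 13HH3, 69 7G8 and 29 input tags, and its H3K9ac level of 60.8 (51.2 to 71.7) per 10M was the lowest of the 10. Its input level was also low, 15.0 (10.1 to 21.6) per 10M, and its log2 ratio over input, 2.02 (1.43 to 2.65), was above the values of Kat2b, Hdac3 and Sirt1, with overlapping intervals.

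Among the deacetylases, Sirt6 had the highest level of H3K9ac, the mark that its enzyme is known to remove, while the ratio over input was highest at Hdac1. Sirt6 (chr10:81088543-81092542, minus strand) had 314 H3K9ac, 99 13HH3, 118 7G8 and 46 input tags, or 135 (121 to 151), 45.8 (37.2 to 55.7), 49.5 (41.0 to 59.3) and 23.8 (17.4 to 31.8) per 10M. Its log2 ratio of H3K9ac over input was 2.51 (2.06 to 2.99), and its 7G8 level was the highest of the 10 members. Hdac1, Hdac2 and Hdac3 had H3K9ac levels from 70.7 to 81.5 per 10M, with overlapping intervals. Hdac3 (chromosome 18, position 38112643 to 38116642, minus strand) had 189 H3K9ac, 45 13HH3, 68 7G8 and 46 input tags, Hdac2 (chr10:36692350-36696349, plus strand) had 178, 84, 80 and 31, and Hdac1 (chr4:129217958-129221957, minus strand) had 164, 28, 59 and 19. Hdac1 had the fewest input tags of the members, with fewer in only 11.8% of all genes, and its log2 ratio of H3K9ac over input was 2.85 (2.16 to 3.61), beside 2.26 (1.70 to 2.86) at Hdac2 and 1.78 (1.30 to 2.27) at Hdac3. Sirt1 (chr10:62842453-62846452, minus strand) had 146 H3K9ac, 47 13HH3, 54 7G8 and 40 input tags, and its log2 ratio of H3K9ac over input was the lowest of the 10, 1.60 (1.09 to 2.15), whereas at its second start it was 2.82 (2.14 to 3.56). In the order of H3K9ac levels from Ep300 through Sirt6, Kat2a, Kat5, Kat2b, Hdac3, Hdac2, Hdac1 and Sirt1 to Crebbp, neighbours differed beyond counting error in 1 of 9 pairs, that of Kat5 and Kat2b, with a log2 ratio of 0.36 (0.09 to 0.64). In the orders of 13HH3 and 7G8 levels, no pair of neighbours did.

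**Figure D1:**
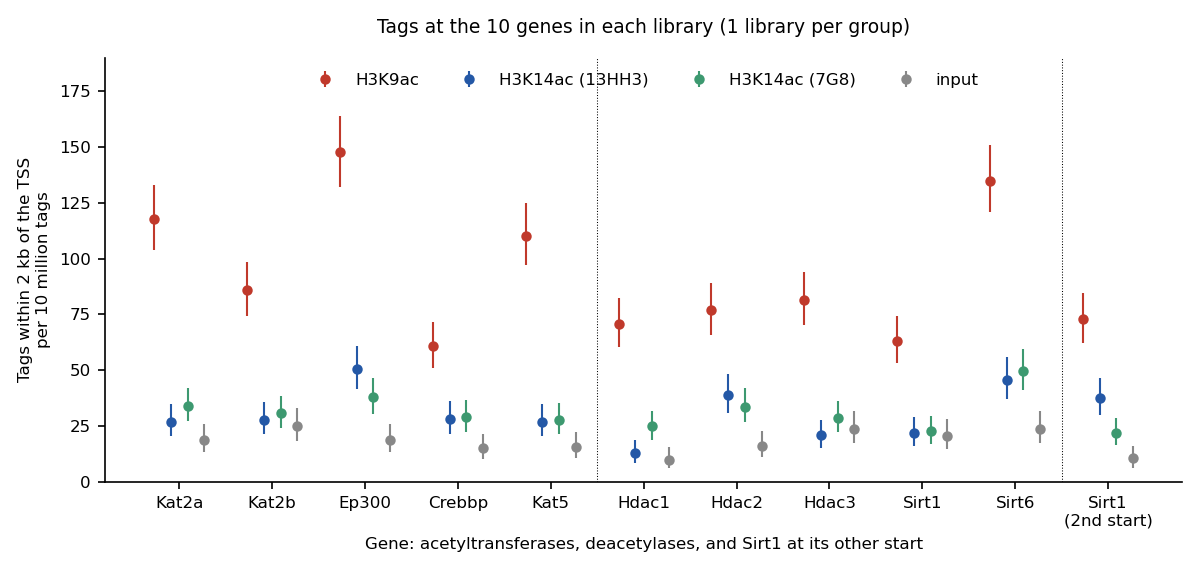
Tags within 2 kb of the TSS per 10M tags (y axis) for each gene (x axis) in the 4 libraries. Points are levels and bars exact 95% counting intervals, with 1 library per group. H3K9ac (red) lies above the other libraries at every gene, from 60.8 at Crebbp to 148 at Ep300. The last column is Sirt1 at its second start.

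H3K14ac was close to input at several of these TSSs. With 13HH3, 2 of 10 members (Ep300 and Hdac2) reached 2 times the input, against 16.5% of all genes tested, and with 7G8, 4 of 10 did (Ep300, Hdac1, Hdac2 and Sirt6), against 16.5%. The interval of the ratio lay above input in 5 of 10 members with 13HH3 (Ep300, Crebbp, Kat5, Hdac2 and Sirt6, against 34.0% of genes), and in 7 of 10 with 7G8 (the same 5, Kat2a and Hdac1, against 33.0%). The median log2 ratio over input of the members was 0.66 with 13HH3 and 0.91 with 7G8, beside 0.35 for all genes tested with either antibody and 0.56 and 0.55 for genes with an H3K9ac region. Ep300 had the highest 13HH3 ratio, 1.44 (0.88 to 2.02), above that of 94.1% of genes, and Hdac2 followed with 1.27 (0.67 to 1.92). The 13HH3 ratio was lowest at Hdac3, -0.19 (-0.82 to 0.43), where the 7G8 ratio was 0.26 (-0.30 to 0.83). At Kat2b and at the TSS of Sirt1, too, the intervals of both antibodies included input, so H3K14ac over input was not detectable over these windows at this depth. Kat2b had an enriched 7G8 region upstream of its TSS, but the interval of its ratio to input also included input (0.70, -0.41 to 1.89). At the second start of Sirt1 both intervals lay above input, with ratios of 1.85 (1.13 to 2.64) for 13HH3 and 1.07 (0.31 to 1.90) for 7G8. The counts at 2 times the input depend on the window and the scaling. With 13HH3, 4 of 10 members reached it within 1 kb of the TSS (25.8% of genes) and 4 of 10 with input scaled over bins (20.1%), and no member reached it with either antibody within 5 kb of the TSS, where the share of all genes that did was 5.51% with 13HH3 and 4.85% with 7G8.

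**Figure D2:**
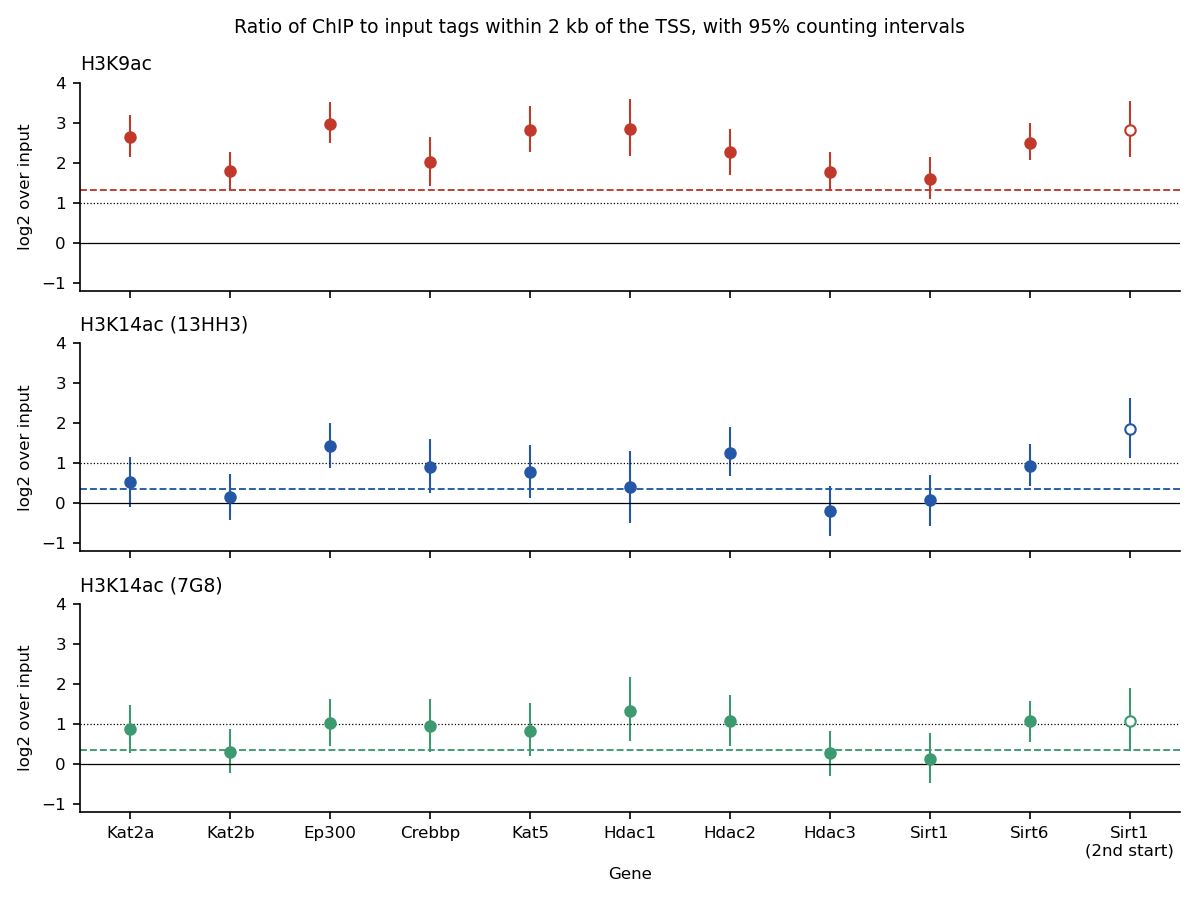
Log2 ratio of ChIP to input tags within 2 kb of the TSS (y axis) for each gene (x axis) and antibody (panels), with exact 95% counting intervals. The dashed line is the median of all genes tested (1.32 for H3K9ac, 0.35 for both H3K14ac antibodies), the dotted line 2 times the input and the solid line equal levels. For H3K9ac all filled points lie above the dotted line, for 13HH3 those of Ep300 and Hdac2. The open point is Sirt1 at its second start, with 1.85 for 13HH3.

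Set against each other, 13HH3 was lower than H3K9ac at all 10 members, as the interval of the ratio lay below 0 on the log2 scale in each of them and in 63.2% of all genes tested. The level of this ratio depends on how well each antibody enriched its library, and the median over all genes was -0.93, over genes with an H3K9ac region -1.34 and over the members -1.60. Hdac1 had the lowest ratio of 13HH3 to H3K9ac, -2.45 (-3.08 to -1.87), below that of all but 1.34% of genes. Kat2a with -2.13 (-2.57 to -1.72), Kat5 with -2.04 (-2.48 to -1.63) and Hdac3 with -1.97 (-2.47 to -1.49) were also low. The highest ratios were those of Hdac2, -0.98 (-1.38 to -0.60), and Crebbp, -1.11 (-1.57 to -0.67), near the median of all genes. The intervals of Hdac1 and Hdac2 did not overlap. The ratios of all 10 members were less low within 5 kb of the TSS, with -1.78 (-2.14 to -1.43) at Hdac1, -1.63 (-1.93 to -1.34) at Kat2a, -1.51 (-1.82 to -1.21) at Kat5 and -1.23 (-1.53 to -0.94) at Hdac3. Hdac3 was then above Ep300 (-1.48, -1.76 to -1.22), Kat2b (-1.42, -1.71 to -1.15) and Sirt1 (-1.29, -1.67 to -0.92), with overlapping intervals. At the second start of Sirt1 the ratio was -0.96 (-1.36 to -0.57), beside -1.54 (-2.04 to -1.05) at its TSS.

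The 2 antibodies against H3K14ac differed beyond counting error at 2 members. At Hdac1, 13HH3 was below 7G8 with a log2 ratio of -0.93 (-1.64 to -0.26), a call that 8.46% of all genes share. At Ep300, 13HH3 was above 7G8 with 0.42 (0.00 to 0.84), a lower bound just above 0, as in 11.4% of all genes. Scaling over bins would put 4.75% of all genes below and 18% above. Neither call held in every window, since within 1 kb the interval of Hdac1 ran from -1.75 to 0.07, and within 5 kb that of Ep300 from -0.10 to 0.58. Within 1 kb the ratio of Ep300 was 1.38 (0.80 to 1.98), larger than within 2 kb. At the other 8 members the ratios ran from -0.46 (Hdac3) to 0.21 (Hdac2), with intervals that include 0, but at the second start of Sirt1 the ratio was 0.78 (0.26 to 1.31).

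**Figure D3:**
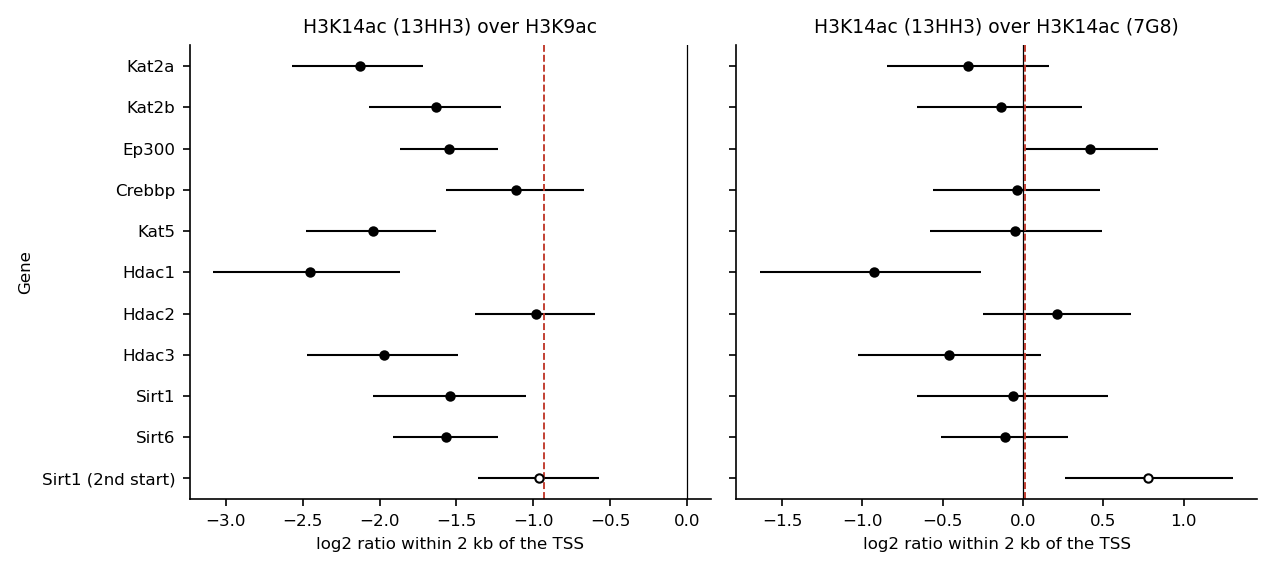
Log2 ratio of H3K14ac (13HH3) to H3K9ac (left) and to H3K14ac (7G8) (right) within 2 kb of the TSS (x axes) for each gene (y axis), with exact 95% counting intervals. The red dashed line is the median of all genes tested (-0.93 left, 0.01 right). Hdac1 lies farthest to the left in both panels, at -2.45 and -0.93.

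At some members and in some libraries the tags were not spread alike on both sides of the TSS. For H3K9ac, 5 of 10 members had more tags downstream, judged by a share whose interval lies above 50% (41.3% of genes tested), and 2 had more upstream (10.2% of genes). Within 1 kb, 3 of 10 had more H3K9ac tags downstream (38.6% of genes). Hdac1 had the largest downstream share of H3K9ac tags, 117 of 164 or 71.3% (63.8% to 78.1%), and was the only member whose interval lay above 50% in all 3 ChIP libraries. For 13HH3 it was 21 of 28 tags (75.0%, 55.1% to 89.3%) and for 7G8 43 of 59 (72.9%, 59.7% to 83.6%), whereas 8 of 19 input tags (42.1%, 20.3% to 66.5%) lay downstream. Between 500 and 1500 bp upstream of Hdac1 lay at most 1 tag of any library, input included, so the upstream side is measured over part of its length, and the part of this gap in the share was not tested. Hdac1 was the only member called downstream with 13HH3 (1 of 10, against 32.6% of genes) and with 7G8 (1 of 10, against 21.9%), and no member was with input (0 of 10, against 12.1%). Other settings called more members, 3 of 10 with 7G8 within 1 kb (18.2% of genes) and 2 of 10 with 13HH3 from the 5′ end of each gene (33.5%). Kat2b (64.3%), Hdac2 (62.9%), Hdac3 (61.4%) and Sirt6 (56.4%, 50.7% to 61.9%) were the others with more H3K9ac downstream.

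More tags upstream were called at Sirt1 with H3K9ac and 7G8, at Kat2a with H3K9ac and at Ep300 with 13HH3. At Sirt1, 98 H3K9ac tags lay upstream and 48 downstream of the TSS, a downstream share of 32.9% (25.3% to 41.1%), and with 7G8 the share was 35.2% (22.7% to 49.4%), the only upstream call of that antibody (1 of 10, against 7.65% of genes). At its second start the H3K9ac share was 55.6% (47.8% to 63.2%) and that of 7G8 40.4% (27.0% to 54.9%), and neither was called. At Kat2a, 157 H3K9ac tags lay upstream and 116 downstream, beside 29 and 29 of 13HH3 and 46 and 35 of 7G8, and the bin of 250 bp with the most of them, 36 tags, was 1500 to 1750 bp upstream, beyond the start of Hspb9. At Ep300, H3K9ac was even, with 173 tags upstream and 169 downstream, whereas 75 of 109 13HH3 tags lay upstream, a downstream share of 31.2% (22.7% to 40.8%), the only upstream call of 13HH3 (1 of 10, against 6.10% of genes). Of the 7G8 tags of Ep300, 39 lay upstream and 51 downstream. The most 13HH3 tags of Ep300, 23, lay 500 to 750 bp upstream, between its TSS and the start of another annotated transcript of Ep300, 863 bp upstream, and with the 5′ end of each gene as its TSS no member was called upstream with 13HH3 (5.90% of genes were). The part of the neighbouring starts in these shares was not tested.

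The shape around the TSS fell into different forms. For H3K9ac, Hdac2 and Kat5 had a narrow maximum at the TSS, with 43.8% and 38.3% of the tags within 2 kb lying within 250 bp. At Hdac2 all 3 ChIP libraries had their upstream maximum in the last 250 bp, with 53 H3K9ac, 24 13HH3 and 16 7G8 tags, as had input with 5 tags. Crebbp had maxima on both sides and a gap between them. In the 500 bp before its TSS no library had a tag, input included. The printed stretch with 84.0% G and C is the last 250 bp of this gap. The H3K9ac maxima of Crebbp lay 1000 to 1250 bp upstream (28 tags) and 500 to 750 bp downstream (19 tags). As input was also without tags, the gap does not show that the marks are absent there. At Hdac1 the gap lay upstream of the TSS, and the H3K9ac maxima were 25 tags at 500 to 750 bp downstream and 17 tags at 1750 to 2000 bp upstream. At Kat2b, H3K9ac had no clear maximum, with 21 tags at 750 to 1000 bp upstream, 21 in the first 250 bp after the TSS and 23 at 1500 to 1750 bp downstream.

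**Figure D4:**
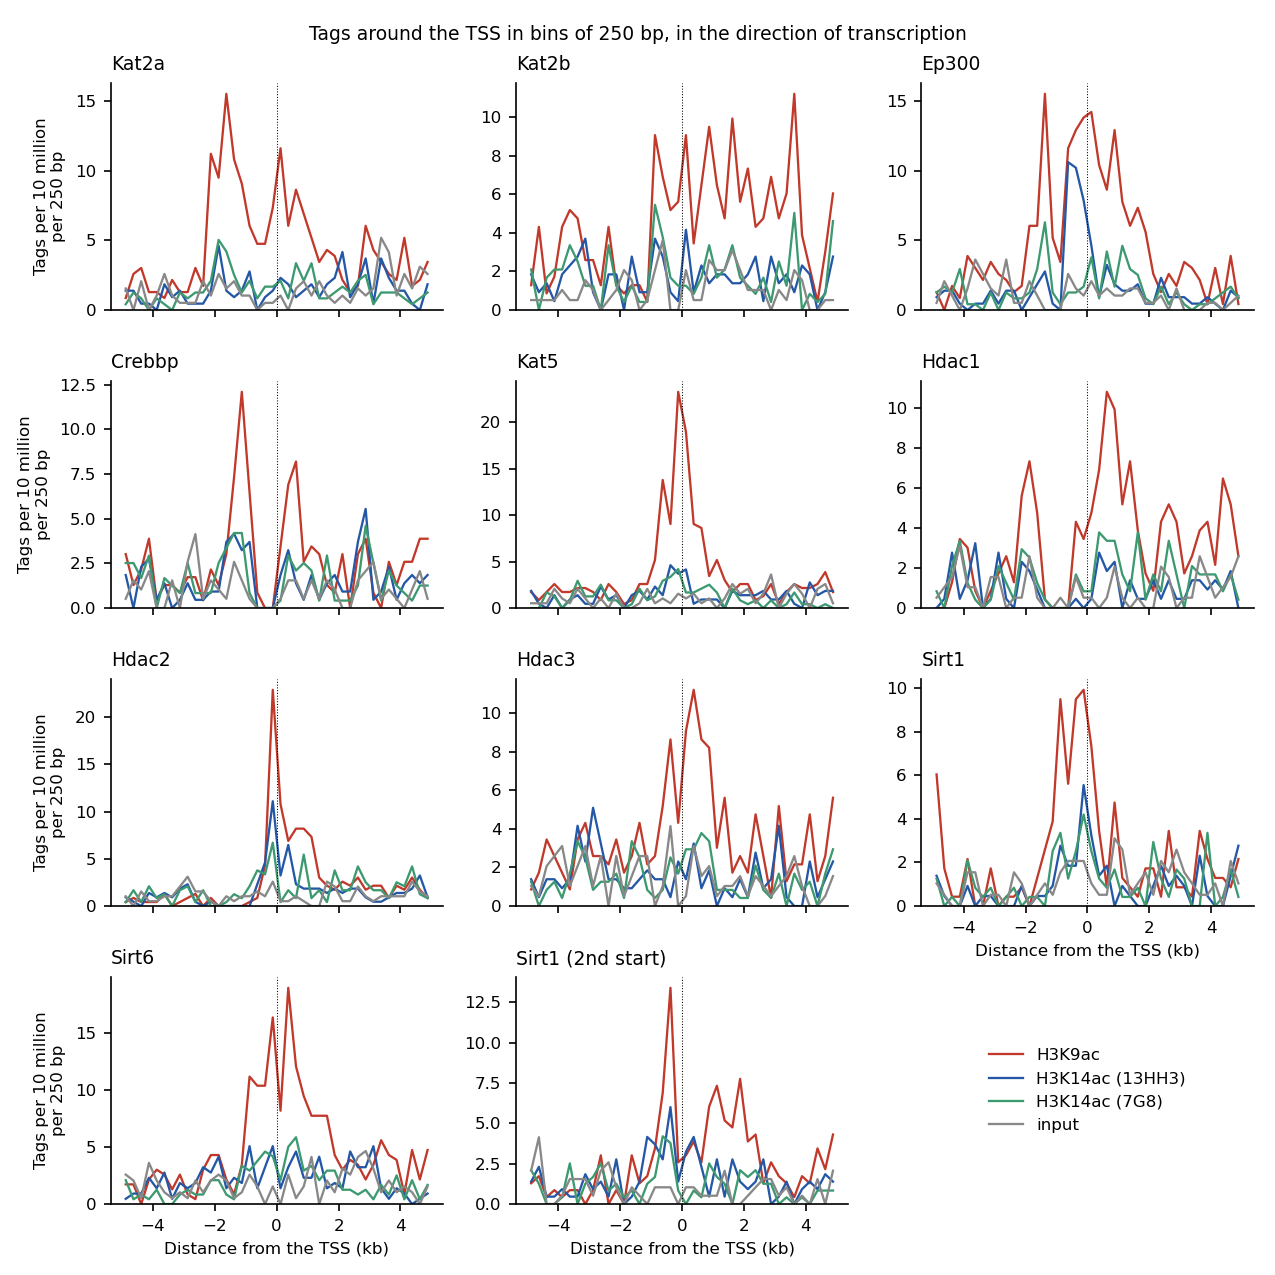
Tags per 10M per bin of 250 bp (y axes, scaled to each gene) by distance from the TSS in kb, with upstream to the left (x axes), in the 4 libraries. Hdac2 and Kat5 have their H3K9ac maximum (red) at the TSS, Crebbp has a gap there in every library, and at Ep300 13HH3 (blue) and 7G8 (green) have their upstream maxima at different places, 500 to 750 bp and 1250 to 1500 bp from the TSS. The last panel is Sirt1 around its second start.

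Enriched regions, stretches where a library exceeded its local background, gave the width of the marked stretch. Their tag ratios are those that selected them and are given as a description. The region of H3K9ac over the TSS was 5200 bp wide at Kat2b, 4250 bp at Ep300, 3750 bp at Kat2a and 3200 bp at Sirt6, and from 1700 to 2400 bp at Hdac1, Hdac3, Kat5, Hdac2 and Sirt1. Over all 76908 H3K9ac regions, those away from a TSS included, the median was 750 bp. A median of the regions over a TSS alone is not given here. At Crebbp the gap split the marked stretch into regions of 1050 and 1400 bp. At Kat2a, Hdac3, Sirt1 and Sirt6, the region also covered the start of the neighbouring gene, and at Ep300 that of AC160528.1. With 13HH3, 3 of 10 members had a region within 2 kb of the TSS (28.2% of all TSSs), Ep300 with 72 tags against 14 input tags, Hdac2 with 60 against 11 and Kat5 with 20 against 5. Without a shift of tags 5 of 10 had one (24.8%), as did 5 of 10 with input scaled over bins (30.6%). With 7G8, 6 of 10 members had a region (25.1%), Kat2b, Ep300, Crebbp, Hdac1, Hdac2 and Sirt6. At the stricter threshold of 1e-10 none of them was left (5.96% of all TSSs had one), and with libraries thinned to the input depth 3 of 10 had one (20.3%). The region of Kat2b held 22 tags against 11 input tags (0.70, -0.41 to 1.89), and that of Crebbp 21 against 8 (1.09, -0.14 to 2.47). Both intervals included input. At Ep300 the called regions lay at different places, that of 13HH3 (chr15:81415651-81416900) over the TSS and that of 7G8 (chr15:81414901-81415450, 24 tags against 2) wholly upstream of it. The 7G8 region also held 10 13HH3 tags, and the 13HH3 region held 20 7G8 tags beside its 14 input tags.

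Over the gene bodies H3K9ac was low but above input in most members. The interval lay above input in 9 of 10 members for H3K9ac (48.1% of the 17495 genes with at least 10 input tags in the body), in 2 of 10 for 13HH3 (25.6%) and in 2 of 10 for 7G8 (16.4%). The median log2 ratio over input of the bodies was 0.78 for H3K9ac (0.25 over all genes), -0.07 for 13HH3 (0.00) and -0.31 for 7G8 (-0.13). Longer bodies hold more tags and so have narrower intervals. Kat2b and Crebbp, the longest bodies, were those above input with all 3 antibodies. Crebbp had 2015 H3K9ac, 1492 13HH3, 1601 7G8 and 938 input tags over 127357 bp, log2 ratios of 0.84 (0.73 to 0.95), 0.51 (0.39 to 0.63) and 0.47 (0.35 to 0.59). Kat2b had 1893, 1352, 1254 and 878 tags over 103750 bp, log2 ratios of 0.84 (0.73 to 0.96), 0.46 (0.34 to 0.58) and 0.21 (0.09 to 0.34). The body of Kat2a was the exception for H3K9ac, where 140 tags stood beside 93 of input (log2 ratio 0.33, -0.06 to 0.72). Its interval also included input without 2 kb around annotated starts (0.34, -0.12 to 0.82) and with libraries thinned to the input depth (0.37, -0.03 to 0.77). With input scaled over bins, which shifts every H3K9ac ratio by 0.38, the ratio was 0.70 (lower bound 0.31). Counted from the TSS, which adds the first 2 kb, the ratio was 0.94 (0.62 to 1.28). The lowest 7G8 ratios were those of Kat5, -1.09 (-1.72 to -0.49), and Kat2a, -1.04 (-1.54 to -0.54).

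The H3K9ac ratio was higher in the part of the body nearer the TSS in Kat2a, Kat2b, Ep300, Crebbp, Hdac1, Hdac2 and Hdac3. It was lower there in Kat5, Sirt1 and Sirt6. The share of all genes was not computed, so whether this is particular to the members cannot be said. In Ep300 the log2 ratio was 1.34 (1.11 to 1.56) in the first part and 0.33 (0.12 to 0.55) in the second, of the same length, and in Hdac3 1.51 (1.09 to 1.95) and 0.58 (0.20 to 0.97). In Sirt1, whose second start lies in the second part, it was 0.27 (0.06 to 0.48) and 0.91 (0.69 to 1.13). The intervals of both parts overlapped in Kat2a, Crebbp, Hdac1, Kat5 and Sirt6, and in Hdac2 they met at 0.27. In the first part of Kat2b, 51875 bp, the log2 ratios over input were 1.45 (1.28 to 1.63) for H3K9ac, 0.97 (0.79 to 1.16) for 13HH3 and 0.64 (0.45 to 0.82) for 7G8, and in the second part, of the same length, 0.16 (0.00 to 0.33), -0.07 (-0.25 to 0.11) and -0.20 (-0.38 to -0.02). The body of Kat2b held 13 of the 41 H3K9ac regions in the bodies of the 10 members, 5 of 14 of 13HH3 and 4 of 10 of 7G8, beside 6, 6 and 5 in the body of Crebbp, which is longer. The strongest lay 14655 to 16454 bp after the TSS (chr17:53720951-53722750), with 144 tags beside 12 of input and a log2 ratio of 3.32 (2.47 to 4.31), beside 2.16 (1.74 to 2.59) for the region over the TSS. A 13HH3 region with 83 tags against 11, 2.75 (1.84 to 3.81), lay at the same place, although 13HH3 had no region at the TSS, and 7G8 had a region of 18 tags against 4 inside it. This stretch ends 701 bp before the start of another annotated transcript of Kat2b. Without 2 kb on either side of every annotated start, the body of Kat2b still had a log2 ratio of 0.82 (0.70 to 0.95) for H3K9ac and 0.44 (0.30 to 0.57) for 13HH3.

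Crebbp had 6 H3K9ac, 6 13HH3 and 5 7G8 regions in its body, none of the H3K9ac regions within 2 kb of an annotated start. At 59304 to 59703 bp after the TSS a 13HH3 region of 15 tags against 2 input tags overlapped one of H3K9ac (27 against 6) and one of 7G8 (17 against 2), whose log2 ratio was 2.78 (0.71 to 5.94). Ep300 had 6 H3K9ac regions in its body and none of H3K14ac, all of them within the first 21056 bp after the TSS. In Kat5 the single H3K9ac region of the body, 147 tags against 22, reached past the 3′ end of the gene to the start of Rnaseh2c, and without 2 kb around annotated starts the interval of the body of Kat5 included input (0.53, -0.01 to 1.09). The body of Sirt1 holds its second start, and without 2 kb around annotated starts its H3K9ac ratio was 0.37 (0.20 to 0.54) in place of 0.59 (0.44 to 0.74). Kat2a and Sirt6, whose bodies are 5720 and 4013 bp long, had no region there.

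**Figure D5:**
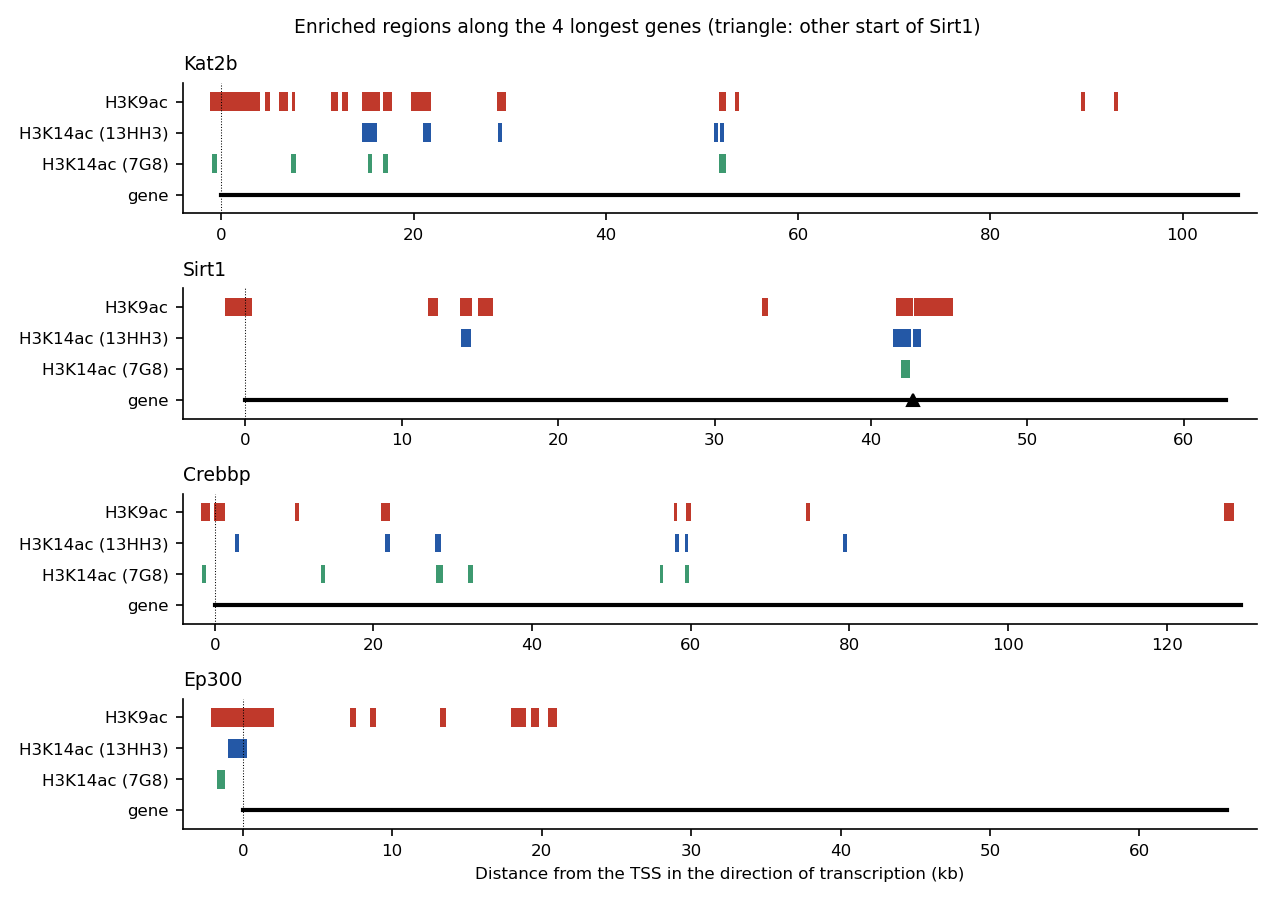
Enriched regions of each antibody (coloured bars) along Kat2b, Sirt1, Crebbp and Ep300 by distance from the TSS in kb (x axis), with the gene as a black line. In Kat2b, regions of all 3 antibodies lie around 15 kb after the TSS, and in Sirt1 at the second start (triangle), 42672 bp after the TSS.

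At the second start of Sirt1, 13HH3 was higher than at its TSS, and H3K9ac and 7G8 did not differ beyond counting error. Within 2 kb of it lay 169 H3K9ac, 81 13HH3, 52 7G8 and 20 input tags, which are 72.9 (62.3 to 84.8), 37.5 (29.7 to 46.6), 21.8 (16.3 to 28.6) and 10.4 (6.33 to 16.0) per 10M. The log2 ratio over input was 2.82 (2.14 to 3.56) for H3K9ac, 1.85 (1.13 to 2.64) for 13HH3, above that of 98.0% of the genes tested, and 1.07 (0.31 to 1.90) for 7G8. The tags of 13HH3 were 1.72 times those at the TSS, with a log2 ratio of 0.79 (0.25 to 1.34), whereas for H3K9ac the interval included equal levels (0.21, -0.12 to 0.54), as did that of 7G8 (-0.05, -0.63 to 0.52), and input was lower there, with 20 tags against 40 at the TSS (log2 interval -1.85 to -0.19). At this start 13HH3 was above 7G8 by 0.78 (0.26 to 1.31), and the ratio of 13HH3 to H3K9ac was -0.96 (-1.36 to -0.57), like that of Hdac2. The H3K9ac tags lay evenly on both sides, 75 upstream and 94 downstream. Regions of H3K9ac (116 tags against 14 and 62 against 7), of 13HH3 (40 against 6 and 16 against 3) and of 7G8 (21 against 4) lay there. The H3K9ac ratio of Sirt1 was therefore the lowest of the 10 at its TSS, and at the second start close to that of Kat5, 2.83.

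Paralogues were compared by their tags within 2 kb, in 12 comparisons over the ChIP libraries. Ep300 had 2.43 times (1.99 to 2.97) the H3K9ac tags of Crebbp and 1.79 times (1.29 to 2.49) its 13HH3 tags, whereas with 7G8 the ratio was 1.30 (0.943 to 1.81) and with input 1.24 (0.740 to 2.10). Over input, their log2 ratios of H3K9ac were 2.98 (2.49 to 3.52) and 2.02 (1.43 to 2.65). Those of 13HH3 were 1.44 (0.88 to 2.02) and 0.91 (0.25 to 1.60). For both marks these intervals overlapped. A part of the window of Crebbp held no tag in any library. Kat2a had 1.37 times (1.14 to 1.66) the H3K9ac tags of Kat2b, with ratios of 0.967 (0.662 to 1.41) for 13HH3 and 1.11 (0.799 to 1.54) for 7G8. With input the ratio was 0.750 (0.473 to 1.18). Hdac1 and Hdac2 differed in another way, with a ratio of 0.921 (0.741 to 1.15) for H3K9ac but of 0.333 (0.209 to 0.517) for 13HH3. With 7G8 the ratio was 0.738 (0.518 to 1.05) and with input 0.613 (0.327 to 1.12), so the lower 13HH3 of Hdac1 went with a lower input whose interval includes equal levels. Sirt1 had fewer tags than Sirt6 with each antibody, at ratios of 0.465, 0.475 and 0.458 for H3K9ac, 13HH3 and 7G8, beside 0.870 (0.555 to 1.36) for input. At its second start the ratios to Sirt6 were 0.538, 0.818 and 0.441, with an interval that includes equal levels on the log2 scale for 13HH3 (-0.73 to 0.15). Input was also lower at the second start, at a ratio of 0.435 (log2 interval -2.04 to -0.42). Over input, the log2 ratios of H3K9ac, 13HH3 and 7G8 were 2.82, 1.85 and 1.07 at the second start and 2.51, 0.94 and 1.06 at Sirt6.

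The sequence around the TSS was examined for CpGs and motifs. Within 500 bp of the TSS the members held from 25 (Sirt1) to 149 CpGs (Crebbp), beside a median of 41.0 over all genes, and Hdac2 (104), Ep300 (103), Kat2b (82), Hdac1 (70), Kat5 (56), Kat2a (47), Hdac3 (46) and Sirt6 (43) lay between. At the second start of Sirt1 there were 145. Across the 10 members Pearson's r of the number of CpGs and the log2 ratio over input was 0.09 for H3K9ac, 0.57 for 13HH3 and 0.41 for 7G8, a description over 10 genes of the same libraries in which mapping and base composition are shared. Crebbp, with the most CpGs, had the fewest H3K9ac tags, though not beyond counting error from Sirt1. Over input its log2 ratio was 2.02 (1.43 to 2.65), above those of Kat2b, Hdac3 and Sirt1, with overlapping intervals. No library, input included, had a tag in the 500 bp before the TSS of Crebbp, and the part of this gap was not tested. From 250 bases before to 50 bases after the TSS, on both strands, the GC box GGGCGG was found in 7 of 10 members (44.7% of all TSSs), CCAAT in 3 (Kat2b, Kat5 and Hdac1, 37.6%), the ETS motif CCGGAAG in 1 (Kat5, 10.9%), and neither the NRF1 motif GCGCATGCG (2.11%) nor TATAAA (13.4%) in any. None of these motifs holds another. For Ep300 and Kat2b the stretch searched is not the printed one, which lies before annotated exons, so the matches in them can differ. Such matches describe letters in a window and not the binding of a factor.

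The other genes of the same pathways were described with lists of known subunits and enzymes. Of 11 other acetyltransferases, 11 had H3K9ac at 2 times the input or more, with a median log2 ratio of 2.56, from Myst4 (1.69) to Hat1 (4.26), which acetylates newly made H4. Of 13 other deacetylases, 7 did, with a median of 1.23, near the 1.32 of all genes. They ran from Hdac7, a class IIa deacetylase, where 63 tags stood beside 78 of input (log2 ratio -0.57, -1.07 to -0.07), to the mitochondrial Sirt3 with 3.32 (2.61 to 4.13). The 5 deacetylases among the members had ratios from 1.60 to 2.85. With 13HH3, 7 of 11 other acetyltransferases and 1 of 13 other deacetylases reached 2 times the input, and with 7G8, 4 and 2.

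Partner subunits carried H3K9ac almost throughout. Of the SAGA and ATAC subunits that work with Kat2a and Kat2b, 23 of 24 reached 2 times the input (median 2.46), from Trrap (0.75) to Zzz3 (3.39). Of the NuA4 subunits around Kat5 other than Trrap, which belongs to both complexes and was counted with SAGA alone, 15 of 15 did (median 2.74), from Dmap1 (1.55) to Epc1 (3.56), the latter also with a 13HH3 ratio of 2.68 (2.08 to 3.33). Of the corepressor subunits around Hdac1, Hdac2 and Hdac3, 25 of 26 did (median 2.45), from Sin3a (0.58) to the histone chaperone Rbbp7 (3.58). At Sin3a, the scaffold of its complex, 13HH3 and 7G8 were below input, with ratios of -0.64 (upper bound -0.01) and -1.28 (upper bound -0.58). Of the BET proteins, which read acetylated lysines, 3 of 4 reached it, with Brd2 at 4.04 (3.52 to 4.61) and the testis gene Brdt at 0.20 (-0.42 to 0.82). With 13HH3 the counts at 2 times the input were 4 of 24, 5 of 15, 8 of 26 and 3 of 4, and with 7G8 9, 8, 9 and 2. The background is 57.7% of genes for H3K9ac and 16.5% for either antibody against H3K14ac.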

How the data were processed

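The data are single-end ChIP-seq and input reads of mES cells, 1 library each. The authors aligned reads of 36 bases to mm9 with ELAND, allowing 1 mismatch, and called peaks with MACS. The version of ELAND is not given in the sources used here. Each deposited line gives where a read mapped and on which strand, with a score of 1 that the authors did not scale and that was not used here. Repeated positions occur in the 13HH3 library only (738619 tags, 3.30%) and were removed. Only the numbered chromosomes, X and Y were kept, and tags were shifted by 100 bp towards the middle of their fragment. The genome and annotation used (NCBIM37, GENCODE vM1) are of the same build, and tag positions were checked against its chromosome lengths, which tags of the input library passed on 1 chromosome.

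Enriched regions were windows of 400 bp in steps of 50 bp with more tags than a Poisson law allows at 1e-05, its rate being the highest of the genome mean and the scaled input in 1, 5 and 10 kb. Ratios were made from tags per 10M. Members of the other lists were named by the highest and lowest ratio of H3K9ac to input, with all 10 genes described, and sequences are of the highest and lowest acetyltransferase and deacetylase and of 1 paralogue, moved before annotated exons where these overlapped. The members and lists were chosen with earlier results of these data known. Calculations used Python 3.11.15 with numpy 2.4.6, scipy 1.17.1 and pandas 2.3.3 and were tested on simulated data. The closing section gives the effect of 12 other settings, of which 1, the second start of genes with tied transcripts, was chosen after seeing the data.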

Additional observations from a re-analysis of the deposited data

How the results depend on the processing

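Of 171 values of 21 counts and medians under 12 alternatives, 149 stayed near the reported value, a count within 1.5 times of it and a median within the counting error of the members' summed tags. The rest follow, each count out of 10 members with the share of all genes in parentheses. For 2-fold counts, 13HH3 gave 4 with input scaled over bins (20.1%), 4 within 1 kb (25.8%) and 0 within 5 kb (5.51%), and 7G8 gave 0 within 5 kb (4.85%). For enriched regions, 13HH3 gave 5 without shift (24.8%) and 5 with scaling over bins (30.6%), and 7G8 gave 0 at 1e-10 (5.96%) and 3 with thinned libraries (20.3%). For downstream calls, H3K9ac gave 3 (38.6%) and 7G8 gave 3 (18.2%) within 1 kb, and 13HH3 gave 2 with the 5′ end of the gene as TSS (33.5%). For 13HH3 against 7G8, 0 members were below within 1 kb (6.92%), 0 above within 5 kb (15.7%) and 2 above (11.6%) with the second start of genes with tied transcripts, a setting chosen after seeing the data. Median log2 ratios of H3K9ac were 2.76 with scaling over bins, 2.82 within 1 kb, 1.62 within 5 kb and 2.58 with the second start, those of 13HH3 0.99 within 1 kb, 0.33 within 5 kb and 0.85 with the second start, and that of 7G8 0.30 within 5 kb. Of 630 values of single genes, 43 moved and 1 reversed, as the body of Sirt6 with 7G8 had a log2 ratio of 0.15 when counted from the TSS. By construction, thinning leaves fewer tags, a stricter threshold leaves fewer regions, and scaling over bins shifts every ratio over input of a library alike. Counting a body from the TSS adds its first 2 kb. Otherwise the cause was not tested. The counts for H3K9ac at 2 times the input stayed at 9 or 10. No paired analysis was possible because each group has 1 library, and leaving out a replicate was not possible for the same reason. Depth also limits the H3K14ac values, as the 28 tags of 13HH3 at Hdac1 leave an interval of -0.50 to 1.32 on the log2 scale.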
